A study of Mus musculus with 9 samples.

Results

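Cytochrome P450 genes were followed across 3 compartments of mouse tail epidermis. The set held every gene whose symbol in the array's platform annotation begins with Cyp and a digit, leaving out Cyp51 and the Cyp26 genes, which act on sterols and retinoids. This gave 64 of the 14507 genes measured. The tissues, cut out of adult tail skin by hand, were the oil-producing sebaceous gland (SG), the hair follicle (HF) and the interfollicular epidermis (IFE) between the hairs, and each sample was a pool of such pieces. All mice were wild-type females on a C57BL6/CBA background, so the groups share genotype, background and sex and are labelled by compartment. There were 3 samples labelled biological replicates in each compartment and 9 arrays in all. The labels do not say which animals or how many went into a pool, and the p-values below measure the spread between these pools.

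P450 enzymes are haem proteins that insert an oxygen atom into a substrate, with electrons passed on from a reductase. Some clear foreign compounds, some make or break down steroid hormones, bile acids and vitamin D, and others oxidise fatty acids to signalling lipids. Skin expresses P450 enzymes of all these kinds, among them an arachidonic acid epoxygenase of keratinocytes. The gene symbols follow sequence similarity, so that members of one family number and letter (such as Cyp2b) are close relatives.

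For 9 of 9 arrays the file name in the description gave a compartment other than the one in the title, and groups were taken from the titles. Marker genes were set against the titles as the mean deviation from each gene's mean over all arrays, on the log2 scale. The list of 14 sebocyte genes lay at 1.42 to 1.91 on the SG arrays, at -0.42 to 0.11 on the HF arrays and at -1.72 to -1.37 on the IFE arrays. The 11 hair shaft and inner root sheath genes measured lay at 2.45 to 3.11 on HF and at -2.34 to -2.28 on IFE. On the SG arrays they lay at -1.55 and -1.30 on replicates 1 and 2 and at 1.11 on replicate 3. The 10 suprabasal IFE genes lay at 0.68 to 1.02 on IFE, at -0.64 to -0.57 on SG and at -0.42 to 0.00 on HF. For each of these lists the 3 highest arrays were those titled with that compartment. Dgat2 of the sebocyte list went the other way, lower in SG than in IFE (-1.91), where 12 of the list were called higher. Krt77 of the suprabasal list was higher in SG (2.04) and in HF (1.49) than in IFE. Of that list 7 were called lower in SG than in IFE and 6 in HF. A list of 12 resting follicle genes set the IFE apart, at -0.88 to -0.73 against 0.24 to 0.48 on SG and 0.34 to 0.44 on HF, and did not part SG from HF. SG replicate 3, with raised hair genes, and HF replicate 2, with the highest sebocyte value of the HF arrays (0.11 against -0.42 and -0.33), stood apart within their compartments. HF replicate 2 also had the highest suprabasal IFE value (0.00) and the lowest hair value (2.45) of the HF arrays. Values without both arrays are given below for the genes called lower in HF than in IFE and for Cyp2f2, Cyp2g1 and Cyp1b1. Dermal fibroblast, endothelial, adipocyte and muscle lists had means between -0.38 and 0.37 on every array. Single genes of them were called higher in HF than in IFE, namely Dcn, a fibroblast matrix gene (1.70, adjusted p = 0.0286), and Acta2, a smooth muscle actin (1.96, adjusted p = 6.68e-05), which was also 1.23 higher in HF than in SG. The 6 melanocyte genes measured lay at 0.81 on SG replicate 3 and at -0.51 to 0.44 on the other arrays, and the 7 Langerhans and T cell genes at 0.30 to 0.54 on SG, -0.56 to -0.30 on HF and -0.26 to 0.20 on IFE. Their part in the results below was not tested. In pooled tissue, fewer cells of a type and less RNA per cell cannot be told apart.

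**Figure D1:**
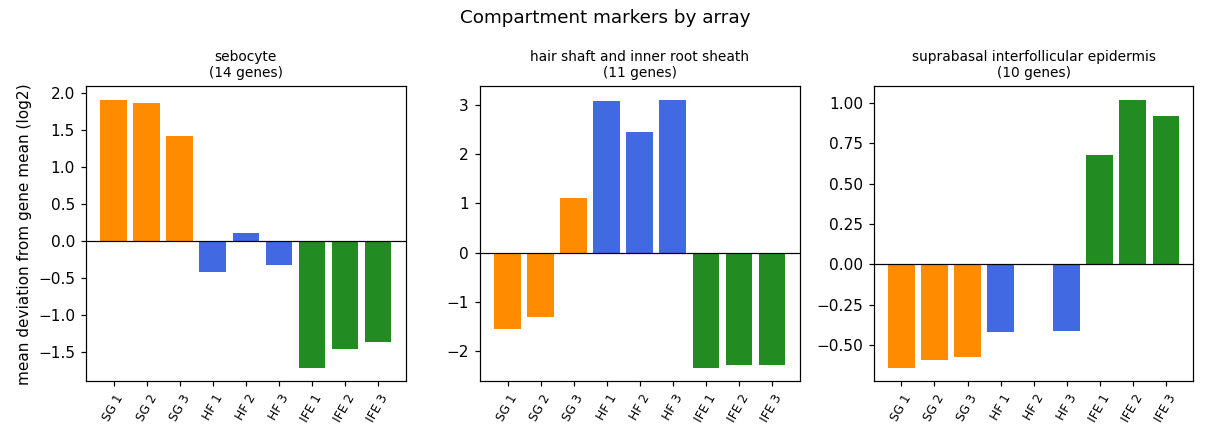
Marker gene lists by array: the bars give each array's mean deviation from the gene means (log2), for 14 sebocyte, 11 hair shaft and inner root sheath and 10 suprabasal IFE genes, with SG in orange, HF in blue and IFE in green. SG replicate 3 is the SG array with hair genes above 0 (1.11), and the suprabasal bar of HF replicate 2 has no height because its value is 0.00.

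Among the P450 genes 3 were higher in the gland than in the IFE, led by Cyp2f2 and Cyp2g1, and 9 were lower in the follicle than in the IFE, led by Cyp2b10. A gene was called changed where limma's adjusted p was under 0.05 and compartment means were at least 1 apart on the log2 scale, and 13 of the 64 were called in at least 1 comparison, against 13.9% of all genes. SG was higher than IFE in 3 genes, Cyp2f2, Cyp2g1 and Cyp2c55 (4.69% of the set, against 2.54% of all genes), and lower in 3, Cyp2b10, Cyp3a13 and Cyp17a1 (4.69%, against 6.96%). HF was higher than IFE in 2, Cyp2f2 and Cyp1b1 (3.12%, against 2.96%), and lower in 9, Cyp2b10, Cyp2b19, Cyp2b9, Cyp2j6, Cyp2j9, Cyp3a13, Cyp39a1, Cyp2r1 and Cyp17a1 (14.1%, against 3.36%). SG was higher than HF in 3, Cyp2f2, Cyp2g1 and Cyp2b10 (4.69%, against 1.81%), and lower in 0 by limma (against 3.3% of all genes), where 1 member was lower at an unadjusted p under 0.05. These comparisons share the arrays of a compartment, so each one's values stand on their own below. The median log2 difference of the set was 0.20 for SG minus IFE, 0.01 for HF minus IFE and 0.21 for SG minus HF, beside -0.06, -0.07 and -0.02 over all genes.

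In the moderated F test over the 3 compartments 16 of the 64 genes (25%) passed an adjusted p of 0.05, against 24.5% of all genes. That share is near the background and is no result about the set as a whole. Of the 64 genes, 19 had a mean log2 intensity above the median gene (7.37), and 7 of the 13 called genes were among these 19. No detection calls were used, so a low value cannot be told from background, and the differences of dim genes may be compressed. A gene rested on 1 to 18 probe sets (a probe set reads roughly 1 exon; median 4.5, 336 in all), and 11 genes rested on 1. Near-identical copies are common among the Cyp2a, Cyp2b, Cyp2c, Cyp2d, Cyp3a and Cyp4a genes, and how far their probe sets read each other was not tested.

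**Figure D2:**
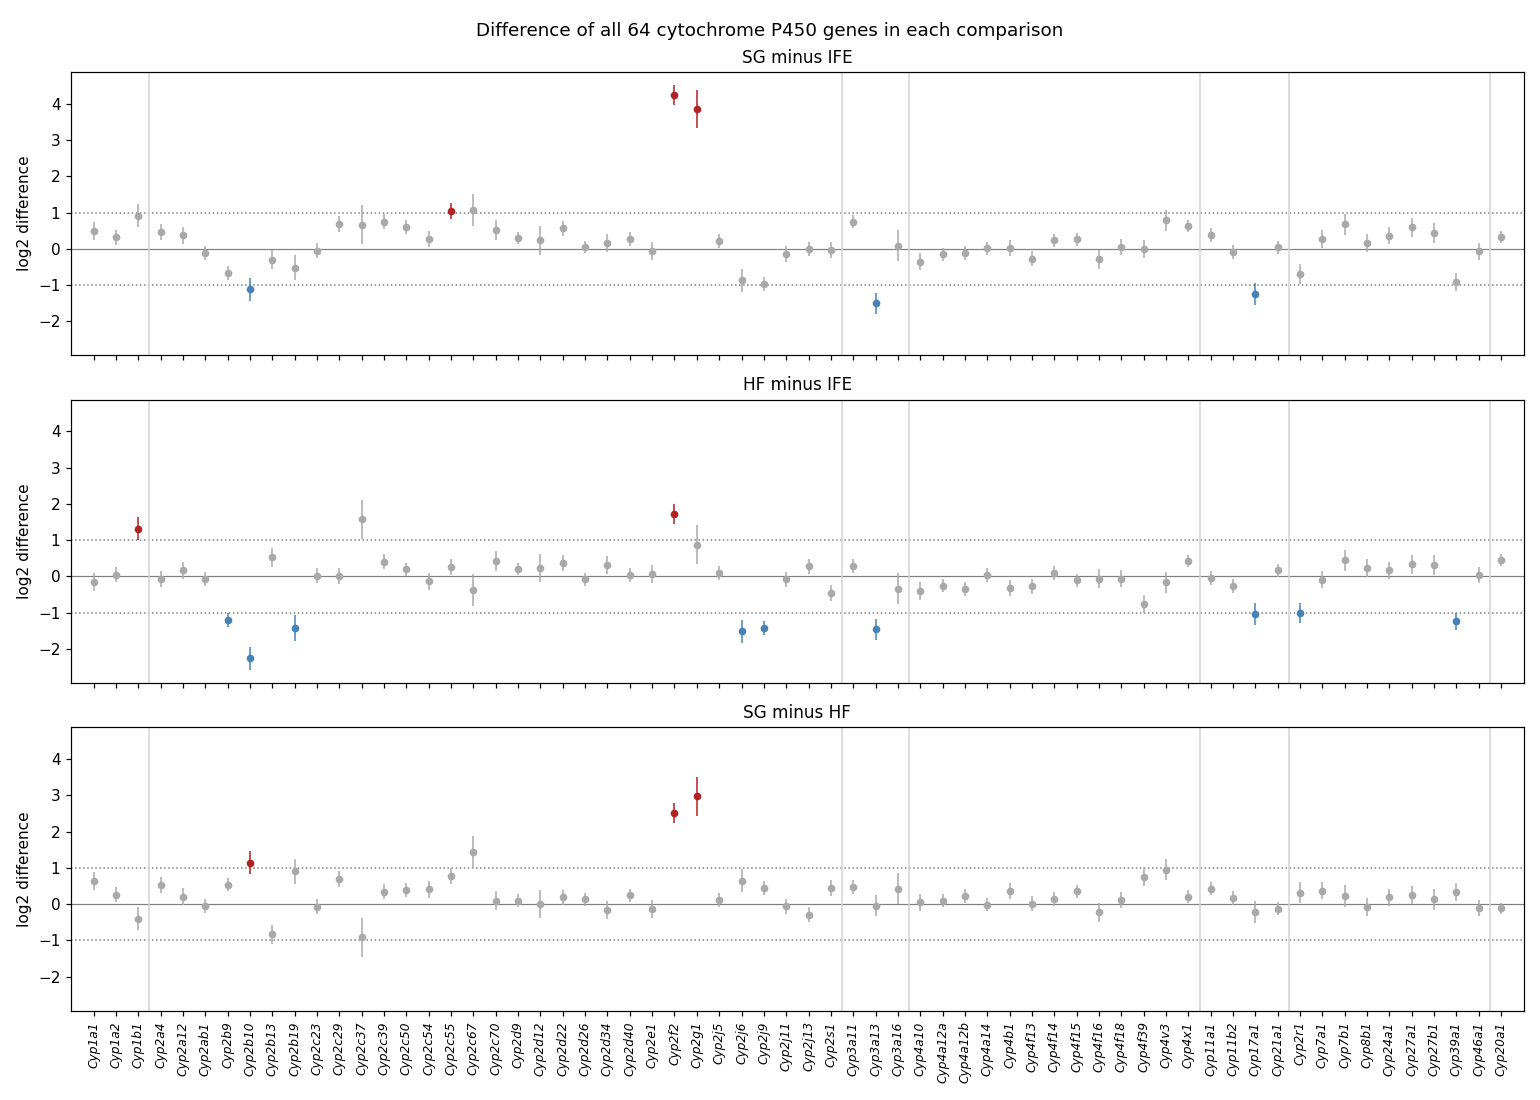
Log2 difference of compartment means (points, with bars for the standard error of the limma fit) for each of the 64 genes in the 3 comparisons, red if called higher, blue if called lower and grey if not called, with dotted lines at 1 and -1 and grey vertical lines between families. Cyp2f2 and Cyp2g1 stand alone above 2 in SG minus IFE and SG minus HF, while the blue points gather in HF minus IFE.

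Leaving out one array moved several of these counts. The 3 genes lower in SG than in IFE became 6 without IFE replicate 1 (with Cyp2j6, Cyp2j9 and Cyp39a1 added) and 1, Cyp3a13, without IFE replicate 2 or IFE replicate 3. The 2 genes higher in HF than in IFE became 1, Cyp2f2, without HF replicate 2, HF replicate 3, IFE replicate 2 or IFE replicate 3. The 3 genes higher in SG than in HF became 5 without SG replicate 3, with Cyp2b19 (1.43, adjusted p = 0.000401) and Cyp4f39 (1.00, adjusted p = 0.0182) added. Without SG replicate 3 and HF replicate 2 together there were 6 higher, now with Cyp1a1 (1.02, adjusted p = 0.0219), and 1 lower, Cyp2b13 (-1.14, adjusted p = 0.0348). HF replicate 2 was the highest HF array for Cyp2b9, Cyp2j6, Cyp2j9, Cyp3a13, Cyp39a1, Cyp2r1 and Cyp17a1, all called lower in HF than in IFE. Without both arrays their HF minus IFE differences were, in that order, -1.37, -1.82, -1.55, -1.63, -1.50, -1.14 and -1.23, each still called. The F test count of 16 became 9 without IFE replicate 2 or without IFE replicate 3. Median centring of the arrays moved the median difference over all genes from -0.06 to 0.18 in SG minus IFE, and under it 6 members were higher and 2 lower, with Cyp1b1, Cyp2c67 and Cyp4v3 added above. Quantile normalization gave 4 higher and 2 lower.

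Both genes with the largest rises in the gland lie in one stretch of chromosome 7. By gene order on assembly GRCm38.p6, the stretch from Cyp2s1 to Cyp2t4 holds 13 protein-coding Cyp2 genes in the order Cyp2s1, Cyp2b10, Cyp2b13, Cyp2b9, Cyp2a4, Cyp2b23, Cyp2b19, Cyp2g1, Cyp2a5, Cyp2a22, Cyp2a12, Cyp2f2 and Cyp2t4. Of these, 9 were measured and 5 were called in at least 1 comparison. Beside them stand 13 of the 64 P450 genes, which include these 5, and 13.9% of all genes. The stretch was not fixed in advance and is described because called genes lie in it, so this share is no test of it. Cyp2f2 and Cyp2g1 were higher in SG than in both other compartments, and Cyp2b10, Cyp2b9 and Cyp2b19 were lower in HF than in IFE. Cyp2b19 and Cyp2g1 are direct neighbours, and their SG minus IFE differences were -0.52 (not called) and 3.85. Of the other 4 measured genes there, Cyp2a4, Cyp2a12 and Cyp2s1 had log2 differences between -0.45 and 0.54 in all 3 comparisons, and Cyp2b13 between -0.83 and 0.53, with none called.

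The bases before the start of 4 of these genes and of Cyp1b1 are shown because they sit before genes of one stretch with opposite patterns, and before a known target gene of the aryl hydrocarbon receptor. RefSeq promoter entries on GRCm38.p6 were found for 10 of the 13 called genes. Each line gives the 250 bases before the annotated start, 5′ to 3′ in the direction of the gene. Capitals mark matches to 3 motifs searched on both strands. The first is the core of the aryl hydrocarbon receptor element, spelled GCGTG. A nuclear receptor half-site, spelled AGGTCA, and the common core promoter box spelled TATAAA were added after the values were seen.
Cyp2f2, chr7:27119705-27119954, plus strand: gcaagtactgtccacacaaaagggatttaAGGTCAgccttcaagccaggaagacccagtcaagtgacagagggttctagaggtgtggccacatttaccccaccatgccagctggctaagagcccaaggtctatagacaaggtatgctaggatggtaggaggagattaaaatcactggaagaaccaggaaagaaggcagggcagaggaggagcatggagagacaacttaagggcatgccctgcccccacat
Cyp2b10, chr7:25897408-25897657, plus strand: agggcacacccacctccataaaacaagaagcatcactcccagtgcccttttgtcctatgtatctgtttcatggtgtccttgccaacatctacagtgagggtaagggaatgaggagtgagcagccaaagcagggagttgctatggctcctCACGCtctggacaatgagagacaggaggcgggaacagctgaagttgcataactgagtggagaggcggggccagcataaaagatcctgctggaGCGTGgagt
Cyp2b9, chr7:26173159-26173408, plus strand: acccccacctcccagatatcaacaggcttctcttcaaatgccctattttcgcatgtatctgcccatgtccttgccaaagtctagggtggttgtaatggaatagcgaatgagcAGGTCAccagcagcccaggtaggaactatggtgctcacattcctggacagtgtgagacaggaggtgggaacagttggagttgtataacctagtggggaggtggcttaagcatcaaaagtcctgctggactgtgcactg
Cyp2b19, chr7:26756892-26757141, plus strand: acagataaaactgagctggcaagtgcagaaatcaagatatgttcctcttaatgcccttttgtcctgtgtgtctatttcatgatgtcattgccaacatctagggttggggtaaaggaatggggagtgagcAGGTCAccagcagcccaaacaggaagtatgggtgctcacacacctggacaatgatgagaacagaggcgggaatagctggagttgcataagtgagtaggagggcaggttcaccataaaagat
Cyp1b1, chr17:79715062-79715311, minus strand: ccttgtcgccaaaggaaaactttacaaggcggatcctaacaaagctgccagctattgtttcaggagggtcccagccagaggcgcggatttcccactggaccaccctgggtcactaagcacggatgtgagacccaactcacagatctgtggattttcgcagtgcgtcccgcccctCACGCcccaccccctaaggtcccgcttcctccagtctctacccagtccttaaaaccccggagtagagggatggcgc
GCGTG stood in 3 of the 10 windows, those of Cyp1b1, Cyp2b10 and Cyp2j9, and in 28.2% of 32851 RefSeq windows of that length. AGGTCA stood in 3, those of Cyp2f2, Cyp2b9 and Cyp2b19, against 14% of all windows, and TATAAA in 1, that of Cyp2c55, against 12.4%. No 2 matches overlapped in the windows printed. The window of Cyp1b1 holds GCGTG on the opposite strand at base -76 from the start, and that of Cyp2b10 holds it at -101 on the opposite strand and at -9. The AGGTCA of Cyp2b9 and that of Cyp2b19 lie within the longest run these windows share, 22 bases, tgagcaggtcaccagcagccca. The windows of Cyp2f2 and the Cyp2b genes share runs of at most 8 bases, so the sequence before Cyp2f2 does not resemble theirs at that length. A match is a description of these letters and names no bound factor.

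Cyp2f2, an enzyme best known for oxidising naphthalene in the airway, showed the largest difference of the 64 genes. Its log2 intensity was 10.83, 11.30 and 10.32 on the SG arrays, 7.99, 8.79 and 8.14 on the HF arrays and 6.30, 6.54 and 6.88 on the IFE arrays. The 3 compartments did not overlap, in the order SG, HF, IFE. Cyp2f2 was 18.9-fold higher in SG than in IFE (log2 difference 4.24 ± 0.28 SE, n = 3 per group, limma adjusted p = 4.37e-06), 5.70-fold higher than in HF (2.51 ± 0.28, adjusted p = 0.000417) and 3.32-fold higher in HF than in IFE (1.73 ± 0.28, adjusted p = 0.00173). Each of its 10 probe sets was higher in SG than in IFE, by 1.63 to 5.97, and in HF than in IFE, by 0.22 to 3.18. The highest HF value was that of replicate 2, the HF array with the highest sebocyte value, and the lowest SG value was that of replicate 3. Without both arrays the log2 differences were 4.49 (SG minus IFE), 3.00 (SG minus HF) and 1.49 (HF minus IFE). The remaining HF arrays also lay above the IFE arrays on the sebocyte list (-0.42 and -0.33 against -1.72 to -1.37). The part of sebocyte signal in the HF minus IFE difference was not tested.

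Cyp2g1, known from the olfactory mucosa, was high in the gland and low in both other compartments. Its values were 9.72, 9.52 and 7.65 on SG, 5.52, 7.01 and 5.45 on HF and 5.15, 4.62 and 5.57 on IFE. SG did not overlap with either compartment, while HF and IFE overlapped. It was 14.4-fold higher in SG than in IFE (log2 difference 3.85 ± 0.53, adjusted p = 0.000425) and 7.84-fold higher than in HF (2.97 ± 0.53, adjusted p = 0.00446), and the HF minus IFE difference of 0.88 ± 0.53 was not called (adjusted p = 0.322). All 7 probe sets were higher in SG than in IFE, by 2.57 to 4.81. SG replicate 3 had the lowest SG value and HF replicate 2 the highest HF value here too. Without them the differences were 4.50 from IFE and 4.14 from HF. With the brightest probe set alone the SG minus HF call ended (2.06, adjusted p = 0.0552).

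Cyp2c55, an arachidonic and linoleic acid oxidising enzyme of the gut, was higher in SG by a smaller margin and at low intensity. Its values were 5.21, 5.24 and 5.29 on SG, 4.48, 4.72 and 4.22 on HF and 3.86, 4.08 and 4.65 on IFE. SG lay above every other array. The log2 difference was 1.05 ± 0.22 from IFE (adjusted p = 0.00507) and 0.77 ± 0.22 from HF (adjusted p = 0.0445), which is under the log2 threshold. All 3 of its probe sets were higher in SG than in IFE, by 0.23 to 0.90. None of them alone reached the log2 threshold of 1, which only their median, taken array by array, passed. The call rests on the choice of arrays and probe sets: it ended without IFE replicate 1 (0.88), without IFE replicate 2 (0.99), with array weights (0.89), with the mean of the probe sets (0.67) and with the brightest one (0.23).

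Cyp1b1, which hydroxylates oestrogens and activates aromatic hydrocarbons, was the gene called higher in HF beside Cyp2f2. Its values were 7.38, 8.47 and 8.10 on HF, 8.24, 7.51 and 6.99 on SG and 6.86, 6.46 and 6.68 on IFE. IFE lay below every SG and HF array, and SG and HF overlapped. The HF minus IFE difference was 1.32 ± 0.32 (2.49-fold, adjusted p = 0.0201), and the SG minus IFE difference of 0.91 ± 0.32 was not called (adjusted p = 0.0644). All 7 probe sets were higher in HF than in IFE, by 0.97 to 2.66, and in SG than in IFE, by 0.53 to 2.39. The HF call ended without HF replicate 2 (adjusted p = 0.074), HF replicate 3 (0.0779), IFE replicate 2 (0.0898) or IFE replicate 3 (0.0621), and it held without SG replicate 3 and HF replicate 2 together (1.07, adjusted p = 0.0329). The SG minus IFE difference was called with median centring (1.15), quantile normalization (1.09), the mean of the probe sets (1.60), the brightest probe set (1.51) and without SG replicate 3 (1.21, adjusted p = 0.0171). The other Cyp1 genes, Cyp1a1 and Cyp1a2, were not called, with differences between -0.15 and 0.64.

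**Figure D3:**
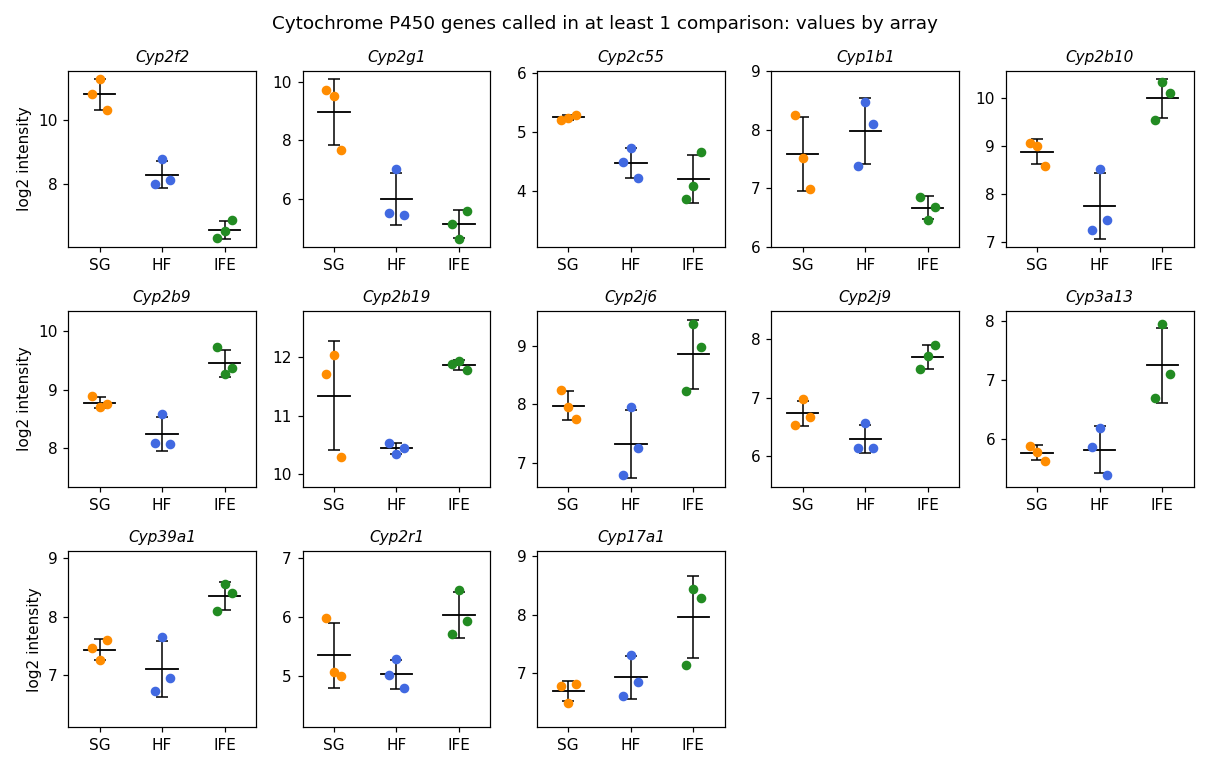
Log2 intensity of the 13 called genes on each array (points; SG orange, HF blue, IFE green), with the compartment mean (long line) and SD (error bar), n = 3, on axes that differ between genes. Cyp2f2 and Cyp2g1 are highest in SG, Cyp1b1 is lowest in IFE, and the 9 genes from Cyp2b10 to Cyp17a1 have their highest mean in IFE.

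Of the 4 Cyp2b genes measured, 3 were lower in HF than in IFE, and Cyp2b13 was not called. Cyp2b10, the classic target of the xenobiotic receptor CAR in liver, had values of 7.25, 8.53 and 7.45 on HF, 9.07, 9.01 and 8.59 on SG and 9.55, 10.35 and 10.11 on IFE. The compartments did not overlap, in the order IFE, SG, HF, with HF replicate 2 just under SG replicate 3. Cyp2b10 was 4.78-fold lower in HF than in IFE (log2 difference -2.26 ± 0.32, adjusted p = 0.000669), 2.17-fold lower in SG than in IFE (-1.12 ± 0.32, adjusted p = 0.0261) and 2.21-fold higher in SG than in HF (1.14 ± 0.32, adjusted p = 0.0428). All 7 probe sets were lower in HF than in IFE, by 0.68 to 3.05 in size, and 7 of 7 were lower in SG than in IFE. The HF minus IFE call held under each setting tried, including without HF replicate 2 and SG replicate 3 (-2.65). The SG minus IFE call ended without SG replicate 2 (adjusted p = 0.0556), SG replicate 3 (log2 difference -0.96), IFE replicate 2 (-0.94) or IFE replicate 3 (adjusted p = 0.083). It also ended without SG replicate 3 and HF replicate 2 together (-0.96), with quantile normalization (-0.72), with median centring (-0.87) and with the letter block, in which arrays whose names end in the same letter share a block (-1.15, adjusted p = 0.108). SG replicate 1, HF replicate 1 and IFE replicate 3 share a letter with no other array. They add nothing to the differences of the letter block, which has fewer arrays to draw on wherever it is named. The SG minus HF call ended without SG replicate 1 (adjusted p = 0.125), SG replicate 2 (0.131), HF replicate 1 (0.168), HF replicate 3 (0.173), IFE replicate 2 (0.0518) or IFE replicate 3 (0.0608), and with the letter block (0.364), the brightest probe set (0.136), the mean of the probe sets (0.0625) or a fit of only the groups compared (0.0588).

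Cyp2b19, the keratinocyte enzyme that turns arachidonic acid into epoxides, had tight values in HF and IFE and a split among the SG arrays. They were 10.54, 10.34 and 10.44 on HF, 11.88, 11.93 and 11.78 on IFE, and 11.71, 12.03 and 10.29 on SG. HF lay below every IFE array, SG replicates 1 and 2 lay with the IFE, and SG replicate 3 lay below the HF arrays. Cyp2b19 was 2.68-fold lower in HF than in IFE (-1.42 ± 0.35, adjusted p = 0.0186), and all 8 of its probe sets were lower there, by 1.09 to 1.96 in size. The SG minus IFE difference was -0.52 ± 0.35 (adjusted p = 0.313). The hair genes of SG replicate 3, at 1.11 against -1.55 and -1.30 on the other SG arrays, moved with this value, and their part in it was not tested. The fit uses 1 spread for all compartments, and the HF minus IFE call ended without HF replicate 1 (adjusted p = 0.0543), HF replicate 2 (0.0547), HF replicate 3 (0.064), IFE replicate 2 (0.0729) or IFE replicate 3 (0.052), while the difference stayed between -1.47 and -1.37. It also ended with the letter block (-1.51, adjusted p = 0.0899). Without SG replicate 3 and HF replicate 2 it was -1.37 (adjusted p = 0.000849), and Cyp2b19 was then called higher in SG than in HF (1.38, adjusted p = 0.0019).

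Cyp2b9, a liver enzyme that hydroxylates steroids, was read by 2 probe sets. Its values were 8.09, 8.58 and 8.07 on HF, 8.89, 8.71 and 8.75 on SG and 9.72, 9.27 and 9.37 on IFE, without overlap. It was 2.31-fold lower in HF than in IFE (-1.21 ± 0.19, adjusted p = 0.00163), and the SG minus IFE difference of -0.67 ± 0.19 was under the log2 threshold (adjusted p = 0.0277). The probe sets disagreed, with HF minus IFE differences of -2.45 and 0.04. Cyp2b13, the remaining Cyp2b gene measured, rested on 1 probe set and was not called, with a difference of 0.53 in HF minus IFE.

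**Figure D4:**
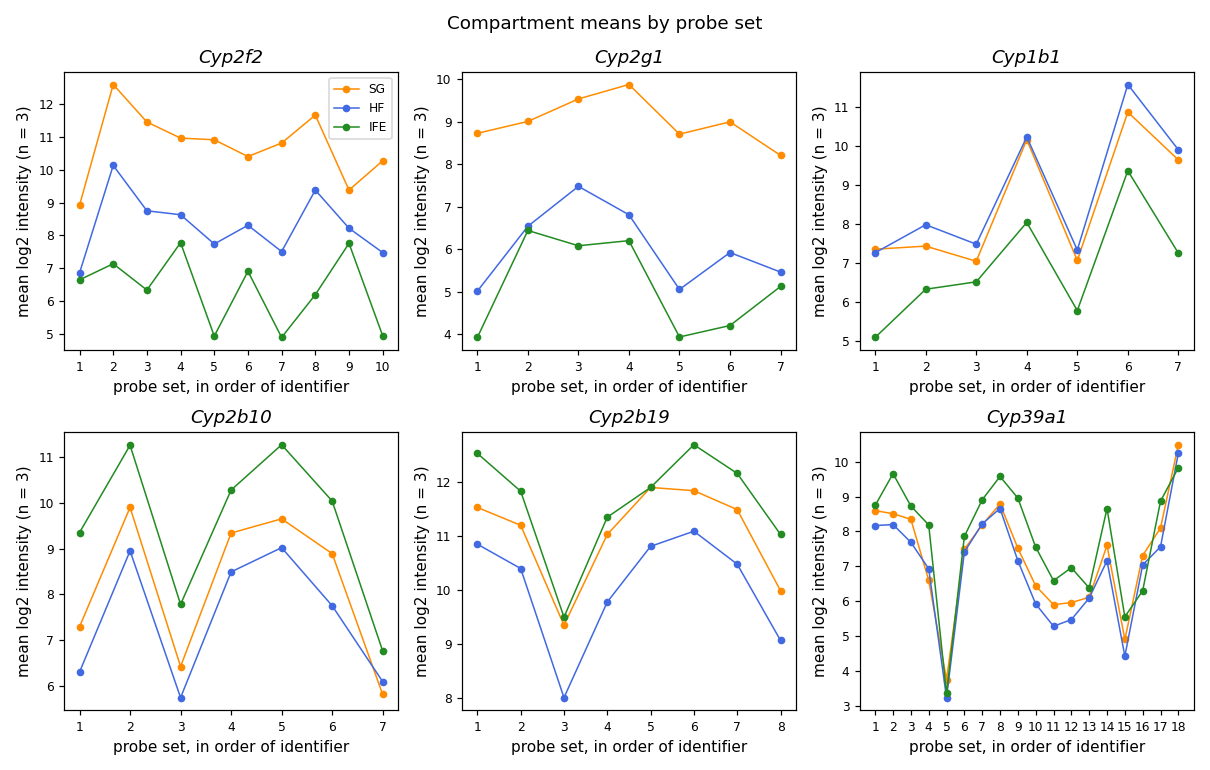
Mean log2 intensity of each probe set (n = 3 arrays per point) for 6 genes, in the order of probe set identifiers, in SG (orange), HF (blue) and IFE (green). The compartments keep their order across the probe sets of Cyp2f2, Cyp2g1 stands highest in SG throughout, and the probe sets of Cyp39a1 cross.

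Both Cyp2j genes called, whose products oxidise arachidonic and linoleic acid, were lower in HF. Cyp2j6 had values of 6.80, 7.95 and 7.26 on HF, 8.24, 7.95 and 7.75 on SG and 8.22, 9.36 and 8.97 on IFE. HF lay below IFE, and SG overlapped with both. The HF minus IFE difference was -1.51 ± 0.32 (2.86-fold, adjusted p = 0.00886), and all 12 probe sets were lower in HF. Cyp2j9 had values of 6.14, 6.56 and 6.15 on HF, 6.54, 6.97 and 6.67 on SG and 7.48, 7.70 and 7.90 on IFE. IFE lay above all 6 other arrays, and SG overlapped with HF. The HF minus IFE difference was -1.41 ± 0.19 (2.65-fold, adjusted p = 0.000595), with 11 of 11 probe sets lower, and the SG minus IFE difference of -0.97 ± 0.19 fell just under the log2 threshold (adjusted p = 0.00438). The Cyp2j6 call ended with the letter block (-1.19, adjusted p = 0.155) and the brightest probe set (adjusted p = 0.0507), and that of Cyp2j9 with the brightest probe set (-0.77). Cyp2j5, Cyp2j11 and Cyp2j13 were not called in any comparison.

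Cyp3a13, of the family that clears drugs and steroids, was lower in gland and follicle alike. Its values were 5.88, 5.77 and 5.62 on SG, 5.86, 6.18 and 5.39 on HF and 6.70, 7.96 and 7.10 on IFE. IFE lay above the other arrays, and SG and HF overlapped. The log2 difference was -1.50 ± 0.29 in SG minus IFE (2.82-fold, adjusted p = 0.00381) and -1.45 ± 0.29 in HF minus IFE (2.73-fold, adjusted p = 0.00709). Of 14 probe sets, 13 were lower in SG and 14 in HF. The HF call ended with the letter block (-1.55, adjusted p = 0.0818). Cyp3a16 was not called, and Cyp3a11 differed by 0.75 ± 0.19 in SG minus IFE (adjusted p = 0.0139), under the log2 threshold.

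Among 9 genes of sterol, bile acid and vitamin D metabolism, 2 were lower in HF than in IFE (against 3.36% of all genes), and 0 were called in SG minus IFE by limma (2 higher and 2 lower at an unadjusted p under 0.05). Cyp39a1, an oxysterol hydroxylase of bile acid synthesis, had values of 6.74, 7.65 and 6.95 on HF, 7.46, 7.26 and 7.61 on SG and 8.09, 8.56 and 8.41 on IFE. IFE lay above the other arrays. The HF minus IFE difference was -1.24 ± 0.24 (2.36-fold, adjusted p = 0.00504) and the SG minus IFE difference -0.91 ± 0.24 (adjusted p = 0.0171, under the log2 threshold). Of its 18 probe sets 16 were lower in HF than in IFE and 2 were higher, and the brightest probe set was among the latter: taken alone it turned the differences to 0.41 in HF and 0.65 in SG. The Cyp39a1 call also ended with the mean of the probe sets (-0.88) and the letter block (adjusted p = 0.124).

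Cyp2r1, the liver enzyme that starts the activation of vitamin D, was the dimmer of the pair. Its values were 5.01, 5.29 and 4.79 on HF, 5.99, 5.07 and 5.00 on SG and 5.72, 6.47 and 5.94 on IFE. HF lay below IFE, and SG spanned both. The HF minus IFE difference of -1.01 ± 0.28 (2.02-fold, adjusted p = 0.0358) lay at the log2 threshold. The call ended without HF replicate 1 (adjusted p = 0.11), HF replicate 3 (0.139), IFE replicate 2 (0.157) or IFE replicate 3 (0.0822), with the letter block (0.112), median centring (-0.91), the mean of the probe sets (-0.81) and the brightest one (-0.41). Without SG replicate 1, Cyp2r1 was called lower in SG than in IFE (-1.01, adjusted p = 0.0172). The vitamin D genes Cyp27b1, which makes the hormone, and Cyp24a1, which breaks it down, were not called, nor were Cyp27a1, Cyp7a1, Cyp7b1, Cyp8b1 and Cyp46a1. Their differences lay between -0.11 and 0.67 in the 3 comparisons.

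Of 4 genes of steroid hormone synthesis, 1 was lower in SG than in IFE (against 6.96% of all genes) and in HF than in IFE (against 3.36%). Cyp17a1, which leads from progestins to androgens, had values of 6.78, 6.50 and 6.82 on SG, 6.61, 7.32 and 6.85 on HF and 7.15, 8.43 and 8.29 on IFE. IFE lay above SG, and IFE replicate 1 lay within the HF range. The log2 difference was -1.25 ± 0.31 in SG minus IFE (2.38-fold, adjusted p = 0.0125) and -1.03 ± 0.31 in HF minus IFE (2.04-fold, adjusted p = 0.0487). Of 9 probe sets, 8 were lower in SG and 9 in HF. The SG call ended without IFE replicate 2 (adjusted p = 0.0646) or IFE replicate 3 (0.0568), with the letter block (0.0985) and with the brightest probe set (0.0836). The HF call ended without SG replicate 1 (adjusted p = 0.057), SG replicate 2 (0.0616), HF replicate 1 (0.187), HF replicate 3 (0.142), IFE replicate 2 (0.201) or IFE replicate 3 (0.178), with the letter block (0.40), the brightest probe set (0.0977) or a fit of only the groups compared (0.0615). It also ended with quantile normalization or median centring (log2 difference -0.92 each) and with the mean of the probe sets (-0.98). Cyp11a1, Cyp11b2 and Cyp21a1 were not called, with differences between -0.26 and 0.43. With the brightest probe set alone, Cyp21a1 was called higher in HF than in IFE (1.83, adjusted p = 0.00354). In that run it was also lower in SG than in HF (-1.30, adjusted p = 0.0258).

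None of the 13 Cyp4 genes, the family of fatty acid omega hydroxylases, was called by limma in any comparison. At an unadjusted p under 0.05, 2 were higher in SG minus IFE, 1 was higher and 1 lower in HF minus IFE, and 2 were higher in SG minus HF. Their differences ran from -0.35 to 0.78 in SG minus IFE, -0.76 to 0.42 in HF minus IFE and -0.23 to 0.95 in SG minus HF. Cyp4x1 had the smallest F test p of the family (adjusted p = 0.0464). It lay at 6.68, 6.78 and 6.52 on SG, 6.57, 6.26 and 6.53 on HF and 5.83, 6.06 and 6.21 on IFE, with IFE below all other arrays. Its SG minus IFE difference was 0.63 ± 0.17 (adjusted p = 0.023), under the log2 threshold. Cyp4f39, whose human counterpart hydroxylates the very long fatty acids of barrier ceramides, is named after its values were seen. It lay at 8.43, 8.23 and 7.61 on SG, 7.15, 7.48 and 7.35 on HF and 7.66, 8.47 and 8.14 on IFE, so that HF lay below both others. Its differences were 0.76 ± 0.25 in SG minus HF (adjusted p = 0.0848), -0.76 ± 0.25 in HF minus IFE (adjusted p = 0.0728) and 0.00 ± 0.25 in SG minus IFE. Cyp4v3, also named after its values were seen, was highest on SG, by 0.78 ± 0.29 from IFE (adjusted p = 0.0764) and 0.95 ± 0.29 from HF (adjusted p = 0.0667). It was called from IFE with the brightest probe set (1.69) and median centring (1.03). From HF it was called with median centring (1.08), quantile normalization (1.11), the letter block (1.25) and without HF replicate 1 (1.18). The orphan Cyp20a1 was not called (F test adjusted p = 0.11), at 6.82 to 7.05 on SG, 7.00 to 7.16 on HF and 6.53 to 6.70 on IFE.

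The remaining 23 Cyp2 genes were not called, with differences from -0.30 to 1.07 in SG minus IFE, -0.45 to 1.58 in HF minus IFE and -0.91 to 1.43 in SG minus HF. The extremes of those ranges came from Cyp2c37 and Cyp2c67, each read by 1 probe set, apart from the -0.30 of Cyp2b13 and the -0.45 of Cyp2s1. Cyp2c37 in HF minus IFE (1.58 ± 0.54, adjusted p = 0.082) was called with the replicate block (adjusted p = 0.0246) and array weights (1.97). It was also called in a fit of only the groups compared, and without SG replicate 2 or IFE replicate 1. Cyp2c67 was called in SG minus HF with the replicate block (1.43), quantile normalization (1.63) and median centring (1.57), among other runs. The Cyp2c genes Cyp2c39 (0.75 ± 0.21, adjusted p = 0.0213), Cyp2c29 (0.68 ± 0.22, adjusted p = 0.0448) and Cyp2c50 (0.60 ± 0.18, adjusted p = 0.0324) were higher in SG than in IFE at an adjusted p under 0.05 and under the log2 threshold. They rested on 1, 3 and 2 probe sets, and the brightest probe set of Cyp2c29 turned its difference to -0.48. The foreign compound enzymes Cyp2e1 and Cyp2s1 and all of the Cyp2d genes measured (Cyp2d9, Cyp2d12, Cyp2d22, Cyp2d26, Cyp2d34 and Cyp2d40) were among those not called. So were Cyp2a4, Cyp2a12, Cyp2ab1, Cyp2b13, Cyp2c23 (Cyp2c44 in the annotation), Cyp2c54 and Cyp2c70.

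Genes that serve P450 enzymes were described from lists chosen with earlier results of these data known. Of 18 electron donor and haem supply genes, 3 stood higher in SG than in IFE (against 2.54% of all genes) and 2 higher in SG than in HF (against 1.81%). In HF minus IFE 0 were called by limma, with 2 higher and 5 lower at an unadjusted p under 0.05. The called genes were Cyb5b, Cyb5r3 and Alad. Cyb5b, a cytochrome b5 of the outer mitochondrial membrane, differed by 1.57 ± 0.24 in SG minus IFE and 1.94 ± 0.24 in SG minus HF. Cyb5r3, a cytochrome b5 reductase, differed by 1.85 ± 0.31 and 1.48 ± 0.31. Alad, an enzyme of haem synthesis, differed by 1.80 ± 0.20 in SG minus IFE. Por, the reductase of microsomal P450 enzymes, lay at 8.45, 8.19 and 8.01 on SG, 7.30, 7.55 and 7.63 on HF and 7.68, 8.05 and 7.97 on IFE. Its SG minus HF difference of 0.73 ± 0.18 (adjusted p = 0.0284) stayed under the log2 threshold. The median difference of this list was 0.05, -0.21 and 0.25 in SG minus IFE, HF minus IFE and SG minus HF.

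Of 18 receptors that control Cyp genes, limma called 2 higher in SG than in IFE (against 2.54% of all genes) and the same 2 higher than in HF (against 1.81%). It called 0 lower in any comparison, while at an unadjusted p under 0.05 2 were lower in SG minus IFE, 4 in HF minus IFE and 0 in SG minus HF. Ppara, which drives Cyp4a genes in liver, differed by 1.13 ± 0.24 from IFE (adjusted p = 0.00546) and by 1.13 ± 0.24 from HF (adjusted p = 0.0108). The other was Pparg, which also stands in the sebocyte list set against the titles. The aryl hydrocarbon receptor gene Ahr and its partner Arnt were not called, nor were the xenobiotic receptors Nr1i2 and Nr1i3. Of 5 other targets of the aryl hydrocarbon receptor, 2 were lower in SG than in IFE (against 6.96% of all genes) and 1 in HF than in IFE (against 3.36%). Tiparp, a feedback repressor of the receptor, was at -1.51 ± 0.24 in SG minus IFE and -1.62 ± 0.24 in HF minus IFE. Nfe2l2, an oxidative stress factor, was at -1.36 ± 0.20 in SG minus IFE. Aldh3a1, Ahrr and Nqo1 were not called, at 1.17, 0.35 and 0.23 in SG minus IFE and -0.41, 0.35 and 0.22 in HF minus IFE. Of 13 epoxide hydrolases and eicosanoid enzymes, 4 were lower in SG than in IFE (against 6.96% of all genes) and the same 4 in HF than in IFE (against 3.36%): Ptgs1, a prostaglandin synthase (-1.61 ± 0.32 and -1.67 ± 0.32), and the lipoxygenases Alox12 (-2.60 ± 0.20 and -1.98 ± 0.20), Alox12b and Aloxe3. Between SG and HF 0 genes of that list were called by limma, with 2 lower at an unadjusted p under 0.05.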

How the data were processed

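Expression was measured in 9 arrays, 3 each of SG, HF and IFE. The authors deposited an intensity per probe set on a linear scale, and the submitters' processing notes name RMA, Affymetrix Power Tools and the build mm9. Their versions and order, and any filter on probe sets, are not stated in the labels. Array medians ran from 176 to 234, so the arrays share no common median, which can shift all differences of a comparison. The log2 was taken without a pseudocount. Of 154736 probe sets, 146964 had 1 symbol in the platform annotation, and a gene's value was the median of its probe sets. Old symbols were updated for 1754 genes from RefSeq on GRCm38.p6, a build other than mm9, so that table served for names and gene order only.

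One model (limma 3.58.1, R 4.3.3, eBayes) took in the 9 arrays, and the Benjamini-Hochberg adjustment ran over 14507 genes. The median SE in SG minus IFE was 0.207, and the number of arrays limits the precision. The code was tested on simulated data. Groups follow the titles. Genes were named if called, if closest to a call in a group without calls, or if under the log2 threshold alone. Per partner list, up to 4 called genes were named. The members and lists were chosen with earlier results of these data known. The alternatives were blocks, scaling, probe set summaries, filters, variance models, thresholds and leaving out arrays. The run without both SG replicate 3 and HF replicate 2 was chosen after seeing the data. Protein sequences were not used here.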

Additional observations from a re-analysis of the deposited data

How the results depend on the processing

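Of the 20 calls of single genes, each kept its direction under each alternative run that tested it, except Cyp39a1 in HF minus IFE. Cyp2f2 in SG minus IFE and SG minus HF, and Cyp2b10 in HF minus IFE, kept their call in all runs. Cyp2g1 in SG minus IFE kept its call in the 21 runs that tested it. It was not tested in the run without the dimmer 50% of genes. The brightest probe set turned Cyp39a1 to 0.41 in HF minus IFE and to 0.65 in SG minus IFE, and Cyp2c29 to -0.48 in SG minus IFE. The counts are given against 3 higher and 3 lower in SG minus IFE, 2 and 9 in HF minus IFE, 3 and 0 in SG minus HF, and 16 in the F test. Leaving out the dimmer 50% of genes gave 1 higher and 1 lower in SG minus IFE, 5 lower in HF minus IFE and 9 in the F test, since dim members were no longer tested. The brightest probe set gave 5 higher in SG minus IFE, 4 lower in HF minus IFE and 1 lower in SG minus HF (Cyp21a1, -1.30). The letter block gave 1 lower in SG minus IFE, 3 lower in HF minus IFE and 8 in the F test. Array weights gave 5 lower in SG minus IFE. Median centring gave 6 higher in SG minus IFE and 5 higher in SG minus HF, and quantile normalization gave 5 higher in SG minus HF. A log2 threshold of 0.5 gave 8 higher and 6 lower in SG minus IFE, and a threshold of 2 gave 0 lower there, and 0 higher and 1 lower in HF minus IFE. Without SG replicate 3 and HF replicate 2 together, SG minus HF had 6 higher and 1 lower. The cause of these changes was not tested beyond what is named. Leaving out 1 array at a time gave 2 to 4 higher and 1 to 6 lower in SG minus IFE, 1 to 3 higher and 6 to 9 lower in HF minus IFE, 2 to 5 higher and 0 lower in SG minus HF, and 9 to 18 in the F test. The count of 0 lower in SG minus HF came from limma, with 1 lower at an unadjusted p under 0.05. Over all genes, the higher and lower calls in SG minus IFE went from 368 and 1009 to 613 and 474 with quantile normalization and to 646 and 570 with median centring.

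The titles share replicate numbers, but the labels tie no number to an animal or day, and 2 of 9 same-number pairs had deviations that correlated above 0.1 (-0.02 to 0.23). The replicate block ended none of the 20 calls. The letter block, whose differences rest only on the arrays that share a letter, ended 9 of them. The replicate block gave 4 higher and 3 lower in SG minus IFE and 3 and 9 in HF minus IFE. In SG minus HF the replicate block gave 4 and 0, with 19 genes past the F test. Signal over background was not measured, which limits what can be said of dim members.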

Other observations

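Probe sets whose annotation names several genes were not used above. Of 2 probe sets shared by Cyp2a4 and Cyp2a5, whose genes lie in the chromosome 7 stretch between Cyp2b9 and Cyp2a22, 1 had log2 intensities of 8.56, 8.55 and 7.75 on SG, 6.31, 6.37 and 6.04 on HF and 6.30, 6.84 and 6.09 on IFE. Its SG arrays lay above the others, by 1.88 from IFE and 2.05 from HF on average, with the lowest SG value on replicate 3. The other lay at 7.48, 7.62 and 7.74 on SG and at 6.77 to 6.94 on IFE, with HF at 7.76, 6.96 and 7.39. These probe sets had no test. The probe set shared by Cyp2c65 and Cyp2c66 lay at 3.55 to 4.75 on all arrays.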
